A study of Mus musculus with 9 samples.

Results

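The 10 genes followed were Hk1, Hk2, Pkm, Ldha, Ldhb, Slc2a1, Slc16a1, Slc16a8, Bsg and Nxnl1. All but Bsg and Nxnl1 encode enzymes or carriers that take glucose into retinal cells, turn it into lactate or pass lactate on. Bsg and Nxnl1 encode proteins that act with or through such carriers. All 10 were chosen by name as members of aerobic glycolysis and the lactate shuttle, with earlier results of these data known. They were all found among the 22337 genes of the deposited table. The study compared 3 groups of retinas taken at postnatal day (P) 28 with 3 RNA-seq libraries in each. WT retinas came from C57BL/6J mice that received no injection. NS-treated rd10 retinas came from mice with a homozygous missense mutation in Pde6b, a subunit of the rod phosphodiesterase, injected with 1 µl of normal saline (NS) per eye at P14 and P21. MSC-EVs-treated rd10 retinas came from mice with the same mutation, injected on the same days with extracellular vesicles released by mesenchymal stem cells from human umbilical cord. In this model rods die first and cones later. The rd10 groups were littermates, but the WT mice came from another supplier and received no injection, so genotype, colony and injection cannot be told apart between WT and rd10. Neither the labels nor the methods give the sex of the mice or how many retinas went into a library, so p-values measure the spread between these libraries, which may be technical in part.

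Photoreceptors are known for aerobic glycolysis: they convert most of their glucose to lactate even with oxygen at hand. Glucose enters through the transporter GLUT1, the product of Slc2a1, and hexokinases trap it as glucose 6-phosphate. Pyruvate kinase ends glycolysis, and lactate dehydrogenase interconverts pyruvate and lactate, with Ldha encoding the subunit held to favor lactate and Ldhb the one held to favor pyruvate. Monocarboxylate transporters carry lactate across membranes with the help of basigin, the product of Bsg. Nxnl1 encodes rod-derived cone viability factor (RdCVF), which rods secrete and which acts on cones through a photoreceptor form of basigin bound to GLUT1.

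The promoters of Hk2, Ldha and Slc16a1, 3 of the genes that fell in rd10, are shown. They were picked because each held the core of the hypoxia response element. The promoter of Nxnl1, the gene that fell most, is shown beside them. The stretches are the 250 bases before a RefSeq start on GRCm38.p6, written 5′ to 3′ on the strand of the gene, with matches to ACGTG on either strand in capitals. They lie at chr6:82774455-82774704 (minus strand) for Hk2, at chr7:46845554-46845803 (plus strand) for the first of 2 Ldha starts, at chr3:104638414-104638663 (plus strand) for Slc16a1 and at chr8:71566650-71566899 (minus strand) for Nxnl1.
Hk2: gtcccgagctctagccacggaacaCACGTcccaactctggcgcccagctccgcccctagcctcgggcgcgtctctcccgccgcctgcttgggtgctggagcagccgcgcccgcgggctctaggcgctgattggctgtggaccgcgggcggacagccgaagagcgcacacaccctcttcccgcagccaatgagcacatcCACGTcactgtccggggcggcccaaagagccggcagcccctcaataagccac
Ldha: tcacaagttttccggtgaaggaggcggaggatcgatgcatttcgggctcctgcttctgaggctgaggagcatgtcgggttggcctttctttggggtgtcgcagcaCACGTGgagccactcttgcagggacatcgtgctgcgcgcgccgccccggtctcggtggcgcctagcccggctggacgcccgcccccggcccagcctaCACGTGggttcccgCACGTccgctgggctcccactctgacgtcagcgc
Slc16a1: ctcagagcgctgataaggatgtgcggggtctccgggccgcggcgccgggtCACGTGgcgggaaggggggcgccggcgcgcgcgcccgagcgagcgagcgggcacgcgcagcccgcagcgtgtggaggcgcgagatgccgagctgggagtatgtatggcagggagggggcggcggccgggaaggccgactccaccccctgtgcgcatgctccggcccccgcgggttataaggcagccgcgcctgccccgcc
Nxnl1: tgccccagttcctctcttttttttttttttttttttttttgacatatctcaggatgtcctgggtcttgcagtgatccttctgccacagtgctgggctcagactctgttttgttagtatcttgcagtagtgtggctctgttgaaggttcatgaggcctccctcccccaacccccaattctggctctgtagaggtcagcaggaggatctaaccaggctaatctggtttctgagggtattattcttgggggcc

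In the Hk2 stretch, the matches began 226 and 52 bases before the start. The Ldha stretch held 5 matches, because each of its 2 copies of the E-box, the palindrome CACGTG, counts as a match on both strands and a further match stood alone. The Slc16a1 stretch held 1 such E-box, and that of Nxnl1 held no match. Of the 10 genes, 9 had a stretch in the table, and 5 of these, Hk2, Pkm, Ldha, Slc2a1 and Slc16a1, held the hypoxia core in 1 stretch each, which makes 5 of the 12 stretches of the 9 genes. Hk1, which also fell in rd10, held no hypoxia core in either of its stretches. Slc2a1, which held the core, was not called between NS and WT. Over all 32851 promoter stretches of the same length, 16.6% held the hypoxia core and 6.0% held the E-box. TAATCC, a core bound by the photoreceptor factor CRX, was found in 6.3% of all stretches and, among these genes, in the second Ldha stretch alone. A match describes the letters of the stretch and is not a binding site.

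The libraries held 19491721 to 62532357 counts, MSC-EVs replicate 3 being the deepest, and levels are given below as CPM, counts relative to the library total, scaled with TMM factors over the 9 libraries. Changes are log2 fold changes from edgeR's quasi-likelihood test on the 6 libraries of a comparison, and a change was called at a Benjamini-Hochberg adjusted p under 0.05 over all genes tested. Markers of rods, cones, Müller glia and inner retinal neurons were detected in each group. Between NS and WT with TMM scaling, 8 of 10 Müller glia markers, 18 of 28 inner retinal neuron markers and 11 of 14 endothelial and pericyte markers rose. Of these lists 0, 1 and 1 markers fell, and over all genes tested 31.2% rose and 30.1% fell. The median change of the neuron markers was 0.27, and scaling to these genes shifted the median change of all genes by -0.29. Between the rd10 groups, 1.16% of the genes tested were called, against 61.3% between NS and WT. MSC-EVs replicates 1 and 2 held 4379 and 4421 counts of 4 Y-linked genes, and the other 7 libraries held between 7 and 23. By these counts, libraries with male tissue occur in the MSC-EVs group alone. In both comparisons of MSC-EVs, treatment and sex thus cannot be fully told apart.

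In NS-treated rd10 retinas, the glycolytic and lactate-exporting genes Hk2, Ldha, Pkm, Hk1 and Slc16a1 fell, as did the rod factor Nxnl1, while Ldhb and Bsg rose slightly, a direction that turned when counts were scaled to inner retinal neuron genes. The falls ranged from 5.94-fold for Nxnl1 and 3.82-fold for Hk2 to a level of 80.3% of WT for Hk1. Of the 10 genes, 8 were called, 6 lower and 2 higher, where 61.3% of all 14644 genes tested were called, 30.1% lower and 31.2% higher. For these 8, each NS library lay beyond all WT libraries, 6 of them lower and 2 higher, as was so for 66.9% of all genes. A fall of at least 2-fold was called for 3 of the 10 genes, Nxnl1, Hk2 and Slc16a1, and for 3.56% of all genes. The median change of the 10 genes was -0.49, and that of all genes tested was 0.005. Because the 10 genes were chosen with earlier results of these data known, these contrasts with all genes are descriptive. In whole retina, fewer cells of a type and less RNA per cell cannot be told apart. All 18 rod markers fell in the same libraries, with a median change of -1.78, and their part in the falls of the 10 genes was not tested.

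**Figure D1:**
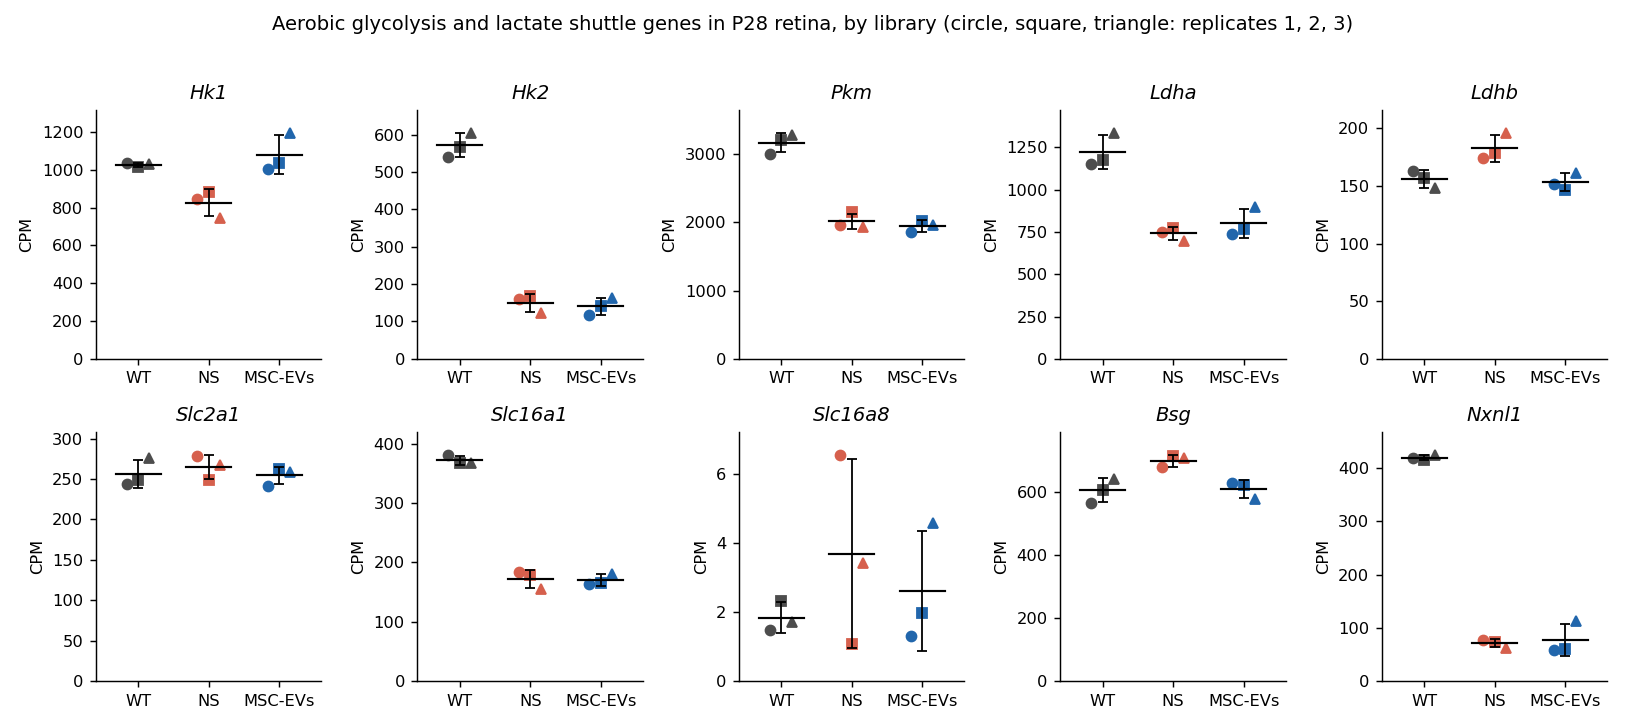
Level of each gene in CPM (vertical axis, from 0) in the 3 libraries each of WT retina and of rd10 retina given NS or MSC-EVs, with the group mean (line) and SD (bar). Hk2, Slc16a1 and Nxnl1 stand far lower in both rd10 groups than in WT, Slc2a1 overlaps across groups, and Slc16a8 spreads widely within each rd10 group.

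Hk1 and Hk2 encode hexokinases, which catalyze the first step of glycolysis; Hk2 is the isozyme typical of photoreceptors and of cells with aerobic glycolysis. Hk2 (ENSMUSG00000000628, chr6:82725025-82774454, minus strand) stood at 541, 568 and 605 CPM in WT, at 159, 168 and 122 CPM in NS-treated rd10, and at 118, 141 and 164 CPM in MSC-EVs-treated rd10. Each rd10 library was thus far below each WT library, and the rd10 groups overlapped. The change with NS was -1.93 ± 0.111 (SE, n = 3 per group, 95% interval -2.18 to -1.68, edgeR adjusted p = 4.54e-07), which left 26.2% of the WT level. The rod marker Gnat1, which encodes rod transducin, fell by 2.13 ± 0.11 on the log2 scale.

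Hk1 (ENSMUSG00000037012, chr10:62268855-62379908, minus strand), the isozyme found in most neurons, stood at 1037, 1016 and 1030 CPM in WT and at 848, 885 and 747 CPM in NS-treated rd10. With MSC-EVs it stood at 1004, 1038 and 1197 CPM. The NS libraries were all below the other groups, and the MSC-EVs libraries covered the WT range. The fall with NS was small, to 80.3% of WT, and passed the test (log2 change -0.32 ± 0.069, edgeR adjusted p = 0.00174). An antisense transcript covers 1.8% of the exonic bases of Hk1, and strand was not stated for the library.

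Pkm (ENSMUSG00000032294, chr9:59656368-59679375, plus strand) encodes the muscle-type pyruvate kinase, which forms pyruvate and ATP. It stood at 3011, 3216 and 3289 CPM in WT, at 1963, 2147 and 1935 CPM after NS, and at 1855, 2026 and 1958 CPM with MSC-EVs. All 6 rd10 libraries lay between 1855 and 2147 CPM. The change with NS was -0.66 ± 0.068 (95% interval -0.81 to -0.51, edgeR adjusted p = 5.14e-06), or 63.4% of WT. Of the 50-base stretches of its transcripts, 25.8% also occur in other genes, so reads of near-identical copies may be among its counts. The table holds 1 value per gene, and the splice forms of Pkm, and likewise of Bsg and Nxnl1, were not separated.

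Of the lactate dehydrogenase genes, Ldha fell and Ldhb rose, the latter not under the neuron scaling. Ldha (ENSMUSG00000063229, chr7:46841475-46855627, plus strand) stood at 1153, 1176 and 1337 CPM in WT, at 753, 774 and 698 CPM after NS, and at 738, 770 and 898 CPM with MSC-EVs. It fell to 60.6% of WT with NS (log2 change -0.72 ± 0.071, edgeR adjusted p = 3.27e-06). Ldhb (ENSMUSG00000030246, chr6:142490249-142507957, minus strand) stood at 163, 157 and 148 CPM in WT, at 174, 179 and 196 CPM after NS, and at 152, 146 and 162 CPM with MSC-EVs. Its NS libraries were above all others, and the rise over WT was 1.17-fold (log2 change 0.23 ± 0.061, edgeR adjusted p = 0.00674). Other genes, among them the pseudogene Ldha-ps2, share 9.0% of the 50-base stretches of Ldha, and Gm5514 shares 21% of those of Ldhb, so their reads may be split or mixed.

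Slc2a1 (ENSMUSG00000028645, chr4:119108711-119137983, plus strand), whose product brings glucose into photoreceptors, Müller glia, endothelium and pigment epithelium, did not pass the test. It stood at 243, 249 and 276 CPM in WT, at 278, 248 and 267 CPM after NS, and at 242, 263 and 259 CPM with MSC-EVs. The groups overlapped, and the change with NS was 0.05 with a 95% interval of -0.09 to 0.19 (edgeR adjusted p = 0.546). Other scalings moved this value to either side.

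Slc16a1 (ENSMUSG00000032902, chr3:104638668-104658462, plus strand) encodes MCT1, a lactate carrier of photoreceptors, Müller glia and pigment epithelium. It stood at 381, 368 and 367 CPM in WT, at 184, 178 and 155 CPM after NS, and at 164, 166 and 181 CPM with MSC-EVs. The fall to 46.3% of WT (log2 change -1.11 ± 0.069, 95% interval -1.26 to -0.96, edgeR adjusted p = 7.1e-08) was called, and no rd10 library reached the lowest WT library. Bsg (ENSMUSG00000023175, chr10:79704491-79711969, plus strand), which brings monocarboxylate carriers to the membrane, was not called lower. It stood at 565, 606 and 641 CPM in WT, at 677, 712 and 706 CPM after NS, and at 629, 620 and 575 CPM with MSC-EVs. Its NS libraries were above those of both other groups, and its rise over WT was 1.15-fold (log2 change 0.21 ± 0.06, edgeR adjusted p = 0.0101); without WT replicate 1 the change was 0.16 and the adjusted p was 0.0522.

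Slc16a8 (ENSMUSG00000032988, chr15:79251014-79254761, minus strand) encodes MCT3, which exports lactate at the basal side of the retinal pigment epithelium, a layer outside the neural retina. It was low in all libraries, at 1.48, 2.33 and 1.70 CPM in WT, 6.56, 1.08 and 3.43 CPM after NS, and 1.296, 1.96 and 4.57 CPM with MSC-EVs. These levels rest on 22 to 294 counts. NS replicates 1 and 3 and MSC-EVs replicate 3 were the high libraries, and they also had the highest sums over 15 markers of pigment epithelium, at 570, 452 and 489 CPM, while the other 6 lay between 291 and 372 CPM. Rpe65, the isomerase of pigment epithelium, was at 19.6, 13.9 and 21.6 CPM in those 3 libraries and at 3.33 to 11.6 CPM in the rest. The change of Slc16a8 with NS did not pass the test (1.04 ± 0.602, edgeR adjusted p = 0.18), and the value hung on single libraries: it was 0.29 without NS replicate 1 (adjusted p = 0.577) and 1.46 without NS replicate 2 (adjusted p = 0.00126). Of the 15 markers, 5 rose between WT and NS, 1 fell and 9 did not pass, where 31.2% of all genes rose and 30.1% fell. The part that pigment epithelium has in the level of Slc16a8 was not tested.

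**Figure D2:**
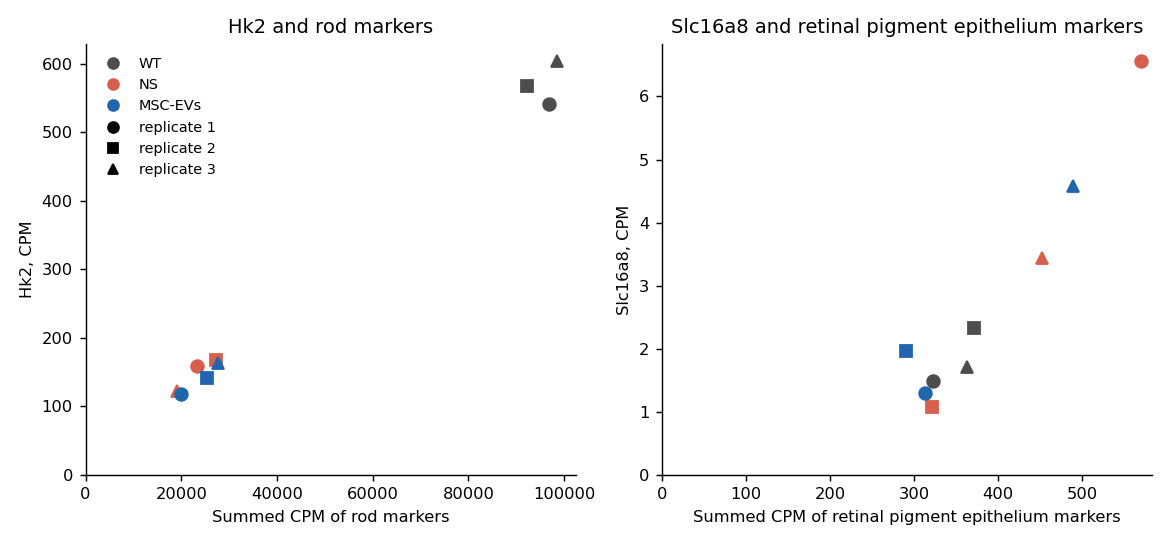
Level of Hk2 against the summed CPM of 18 rod markers (left), and level of Slc16a8 against the summed CPM of 15 pigment epithelium markers (right), 1 point per library, colored by group. The WT libraries stand apart from all rd10 libraries on both axes of the left plot, and the 3 libraries with the highest pigment epithelium sums are the 3 with the most Slc16a8.

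Nxnl1 (ENSMUSG00000034829, chr8:71560555-71566601, minus strand) had the largest fall of the 10 genes. It stood at 419, 417 and 425 CPM in WT, at 76.8, 73.7 and 61.9 CPM after NS, and at 58.1, 60.0 and 112 CPM with MSC-EVs. The WT libraries were within a few CPM of each other, and MSC-EVs replicate 3 stood apart from the other rd10 libraries. The change with NS was -2.57 ± 0.078 (95% interval -2.74 to -2.40, edgeR adjusted p = 4.87e-10), which left 16.8% of the WT level. Markers of cones, the cells that RdCVF acts on, summed to 1857 to 2093 CPM in WT and 1861 to 1909 CPM after NS, and of 12 cone markers 4 rose, 4 fell and 4 did not pass. Opn1sw, the short-wavelength cone opsin, was among those that fell, by 0.58 ± 0.061 on the log2 scale. With MSC-EVs the cone markers summed to 1620 to 1831 CPM under TMM scaling. This was below every library of the other groups, the lowest of which stood at 1857 CPM. Of the 12 markers, 2 were called higher and 7 lower than WT with MSC-EVs, where 28.3% and 27.2% of all genes were. Between the rd10 groups 0 were called, where 1.16% of all genes were.

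**Figure D3:**
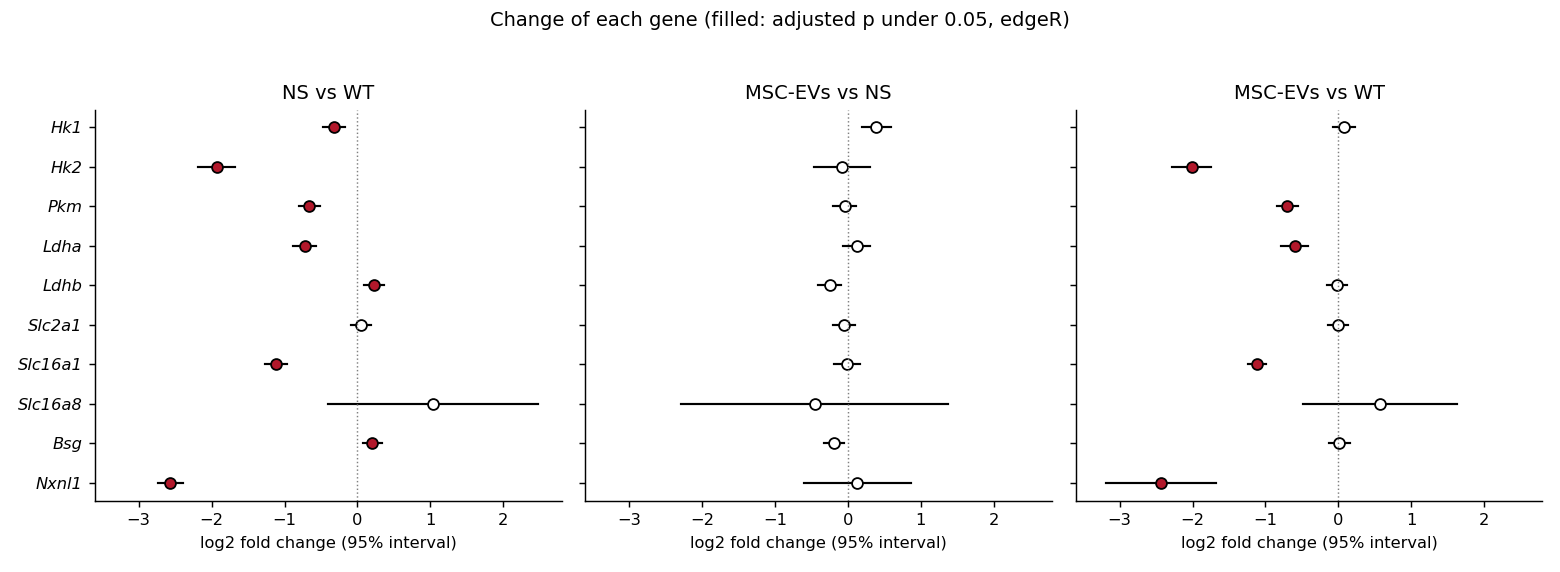
Log2 fold change of each gene (point) with its 95% interval (line) in the 3 comparisons, with calls filled. Hk2, Slc16a1 and Nxnl1 lie below -1 in both comparisons with WT, and no gene is called between MSC-EVs and NS.

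The direction of the small changes depended on the scaling. Scaling to 28 inner retinal neuron genes, most of which stood higher in rd10 with TMM, shifted the median change of all genes by -0.29 between NS and WT. With it, 7 of the 10 genes were called lower and 0 higher, and Ldhb, Bsg and Slc2a1 stood at -0.06, -0.08 and -0.25, the last with an adjusted p of 0.0231. Over all genes, this split was 2229 higher and 7146 lower, against 4562 and 4410 with TMM. In the FPKM values of the authors, which are scaled to transcript length and mapped fragments, the median shift was 0.16 on log2(FPKM + 1), limma called 6051 genes higher and 2377 lower, and 3 of the 10 genes, Ldhb, Bsg and Slc2a1, rose while 6 fell. The falls of Hk2, Slc16a1, Nxnl1, Ldha, Pkm and Hk1 were called at an adjusted p under 0.05 under each other scaling, filter and test and with each library left out in turn; asking also for a 2-fold change left Hk2, Slc16a1 and Nxnl1.

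The effect of MSC-EVs was compared between the rd10 groups. None of the 10 genes passed edgeR's test, where 1.16% of 14765 genes did, 0.914% higher and 0.251% lower. DESeq2 called 2 of the 10 and 947 of all genes, and limma on log2(FPKM + 1) called 0 and 94. In edgeR, 3 of the 10 had an unadjusted p under 0.05, as had 2980 of the 14765 genes. Those 3, Hk1, Ldhb and Bsg, were also the genes whose libraries did not overlap, 1 higher and 2 lower, and 26.3% of all genes did not overlap. With TMM scaling, each of the 3 stood on the WT side of NS; under the neuron scaling, Ldhb and Bsg were below WT with NS and lower still with MSC-EVs. Hk1 was 1.31-fold of NS with MSC-EVs (log2 change 0.39 ± 0.09, 95% interval 0.19 to 0.59, edgeR adjusted p = 0.0674). Ldhb differed by -0.25 ± 0.071 (95% interval -0.41 to -0.09, edgeR adjusted p = 0.103) and Bsg by -0.19 ± 0.061 (95% interval -0.33 to -0.06, edgeR adjusted p = 0.125).

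The NS libraries enter both the comparison with WT and the comparison with MSC-EVs, so a chance deviation of NS moves both. For Hk1 the call depended on the test: it passed with DESeq2 (adjusted p = 0.0019), with all 9 libraries in one edgeR fit (0.0162), without MSC-EVs replicate 2 (0.0481) and with the Y-linked level of each library as a covariate (0.0473). With MSC-EVs replicate 3 as the only treated library, the 1 with few Y-linked counts, the change of Hk1 was 0.55 (edgeR adjusted p = 0.0466), the lone library being taken to vary like the others. Ldhb passed with DESeq2 (adjusted p = 0.0359) and with all 9 libraries (0.0367).

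The genes that fell furthest in rd10 stood near their NS level with MSC-EVs. The change was -0.08 for Hk2 (95% interval -0.46 to 0.30), -0.01 for Slc16a1 (-0.19 to 0.17), -0.05 for Pkm (-0.20 to 0.11) and 0.12 for Ldha (-0.07 to 0.31). The interval was thus widest for Hk2 among these 4. Slc2a1 differed by -0.05 (-0.20 to 0.10). For Slc16a8 the interval was wide, -2.29 to 1.38.

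Nxnl1 changed by 0.13 with an interval of -0.61 to 0.87, with MSC-EVs replicate 3 at 112 CPM and the other 2 treated libraries below all NS libraries. Without that library the change was -0.26 (edgeR adjusted p = 0.207). Over 18 alternatives it ranged from -0.26 to 0.67. With the Y-linked level of each library as a covariate, which sets replicate 3 apart from the other treated libraries, Nxnl1 was called higher than with NS. MSC-EVs replicate 3 also had the highest rod marker sum of the rd10 libraries, 27630 CPM. NS replicate 2 came next at 27210 CPM, with Nxnl1 at 73.7 CPM. Over all 18 rod markers, none passed between the rd10 groups, and their median change was 0.02. MSC-EVs replicate 3 is also the deepest library and the only treated one with few Y-linked counts. The parts of depth and of rod content in its Nxnl1 level were not tested.

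Against WT, MSC-EVs-treated rd10 retinas had 5 of the 10 genes called lower and 0 higher, where 55.5% of 14623 genes were called, 27.2% lower and 28.3% higher. The same 5 did not overlap between groups, as did 65.2% of all genes. Hk2 stood at 24.8% of WT (log2 change -2.01 ± 0.115, edgeR adjusted p = 6.88e-06), Nxnl1 at 18.5% (-2.43 ± 0.292, adjusted p = 0.00158) and Slc16a1 at 46.0% (-1.12 ± 0.056, adjusted p = 4.94e-07). These 3 were called with a fall of at least 2-fold, as were 3.2% of all genes. Pkm and Ldha changed by -0.70 ± 0.063 and -0.60 ± 0.085. Hk1, Ldhb and Bsg, which differed from WT with NS, stood at 0.08, -0.02 and 0.02 with MSC-EVs, with 95% intervals of -0.08 to 0.23, -0.15 to 0.11 and -0.13 to 0.16. Scaled to inner retinal neuron genes, where the median of all genes shifted by -0.18, all 3 stood below WT, by -0.11, -0.20 and -0.17, and Ldhb was called (adjusted p = 0.0302); on log2(FPKM + 1), where it shifted by 0.15, Bsg was called higher (0.21, limma adjusted p = 0.026). The split of calls over all genes was 4137 higher and 3980 lower with TMM, 2503 and 5755 with the neuron scaling, and 5499 and 2206 on FPKM. The NS and MSC-EVs comparisons with WT share the WT libraries.

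Levels of different genes were compared per length, in the FPKM deposited by the authors. In WT, Pkm led at 1275 ± 54.4 FPKM (SD, n = 3), followed by Ldha at 733 FPKM, Bsg at 411 FPKM and Hk1 at 357 FPKM. Nxnl1 came next at 142 FPKM, then Ldhb at 113 FPKM and Hk2 at 95.8 FPKM, and Slc2a1 and Slc16a1, whose library ranges overlapped, stood at 84.2 and 77.8 FPKM. Slc16a8 was last at 0.943 FPKM. With NS the order changed: Bsg moved above Ldha, and Hk2 and Nxnl1, at 28.4 and 27.1 FPKM with overlapping ranges, dropped below Slc2a1 and Slc16a1. With MSC-EVs, Bsg and Hk1 overlapped, as did the neighbors Slc16a1, Nxnl1 and Hk2.

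Shares of isozymes within a library, in which library scaling cancels, separated the groups. Hk2 made up 21.2% ± 1.44 (SD, n = 3) of the summed Hk1 and Hk2 FPKM in WT, 8.68% ± 0.502 with NS and 6.02% ± 0.443 with MSC-EVs. Ldhb made up 13.4% ± 1.41 of the summed Ldha and Ldhb FPKM in WT, 22.9% ± 2.45 with NS and 18.3% ± 0.969 with MSC-EVs. No library of one group overlapped with another group in either share. NS differed from WT by -12.5 points in the Hk2 share and 9.52 points in the Ldhb share, and MSC-EVs from NS by -2.66 and -4.65 points, each with a two-sided exact permutation p of 0.1, the smallest that 3 against 3 libraries allow. With summed counts in place of FPKM, the same differences were -20.4, 8.45, -3.77 and -3.71 points.

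**Figure D4:**
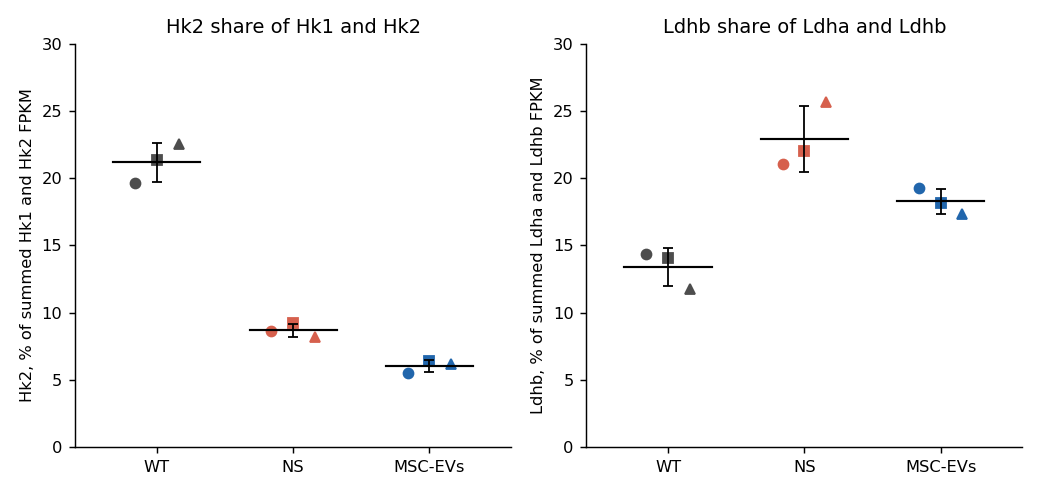
Share of Hk2 in the summed FPKM of Hk1 and Hk2 (left) and of Ldhb in that of Ldha and Ldhb (right), in percent, by library (points), with the group mean (line) and SD (bar). The Hk2 share is highest in WT, and the Ldhb share is highest with NS.

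The rest of the pathway was followed with 81 further genes in 5 lists, also chosen with earlier results of these data known. Of these genes, 74 could be tested. Between NS and WT, 26 of them rose, 22 fell and 26 did not pass, with a median change of 0.08, while 31.2% of all genes rose and 30.1% fell, so the count lies near the background. Under the neuron scaling 14 rose and 35 fell, and on FPKM 33 rose and 11 fell. Of 21 glycolytic enzymes tested, 3 rose, 7 fell and 11 did not pass; under the neuron scaling 2 rose and 12 fell, and on FPKM 5 rose and 3 fell, so the balance of this list rests on the scaling. Hkdc1, a hexokinase-like enzyme, rose from between 5.55 and 7.21 CPM to between 29.6 and 33.2 CPM (log2 change 2.33 ± 0.107, edgeR adjusted p = 6.59e-09). Hk3, the hexokinase of blood leukocytes, rested on 2 to 5 counts per WT library and 18 to 56 with NS (3.35 ± 0.514, adjusted p = 0.00013). All 16 microglia and macrophage markers rose beside it, and their summed level went from between 84.8 and 92.1 CPM in WT to between 513 and 628 CPM with NS; their part in Hk3 was not tested. Eno4, an enolase of sperm, fell by 1.297 ± 0.205 on the log2 scale, at 29 to 109 counts in WT and NS libraries; it shares 6.5% of its exonic bases with the much more abundant Hspa12a on the other strand.

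Among 14 glycolytic regulators, 5 rose, 5 fell and 4 did not pass, with 2 and 8 under the neuron scaling and 6 and 3 on FPKM. Pfkfb2, which makes the activator fructose 2,6-bisphosphate, fell by 1.38 ± 0.056 on the log2 scale (edgeR adjusted p = 2.77e-09), from between 333 and 354 CPM to between 125 and 136 CPM. Tigar, which degrades that activator, fell by 0.83 ± 0.061, and Txnip, an inhibitor of glucose uptake that overlaps an antisense transcript, rose by 1.19 ± 0.12. In the list on pyruvate entry into mitochondria, 4 of 14 genes rose and 5 fell, with 1 and 9 under the neuron scaling and 6 and 2 on FPKM. Pdk4, a kinase that shuts pyruvate dehydrogenase off, rose by 1.41 ± 0.353 on 7 to 42 counts per library, and Pdp2 and Pdpr, a phosphatase that turns it on and the regulator of that step, fell by 0.78 ± 0.098 and 0.51 ± 0.086. The more abundant phosphatase Pdp1 rose by 0.28 ± 0.07, as did Mpc1, of the pyruvate carrier, by 0.44 ± 0.067 and Pdha1, of the dehydrogenase, by 0.19 ± 0.057; these 3 were named after their values were seen.

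The sugar and monocarboxylate carriers other than Slc2a1, Slc16a1 and Slc16a8 mostly rose, 11 of 19 against 3 that fell, with a median change of 0.51. Over all genes, 31.2% rose and 30.1% fell. With the neuron scaling 8 of the carriers rose and 4 fell. The called genes with the largest changes were Slc16a14 (1.77 ± 0.156), Slc16a9 (1.67 ± 0.179) and Slc2a12 (1.47 ± 0.184). Each stood between 2.02 and 22.4 CPM in the WT and NS libraries. The 3 carriers that fell were Slc16a6 (-0.99 ± 0.073), Slc16a3 (-0.80 ± 0.091) and Slc5a8 (-0.38 ± 0.155), named after their values were seen. Slc16a6 and Slc16a3 were among the more abundant carriers, at 62.9 and 25.8 FPKM in WT and 34.6 and 15.4 FPKM with NS. Slc16a14, Slc16a9 and Slc2a12 stood at 2.77, 4.93 and 1.70 FPKM with NS. Parts of Slc16a6, Slc16a9 and Slc2a12 overlap genes on the other strand. Among 6 relatives of RdCVF and thioredoxins, Nxnl2, the paralog of Nxnl1, fell by 1.82 ± 0.172 (edgeR adjusted p = 6.7e-05), from between 68.3 and 77.8 CPM to between 16.3 and 27.5 CPM. Nxn and Txnrd1, of the thioredoxin system, rose by 0.58 ± 0.084 and 0.39 ± 0.058, the latter falling to 0.11 (adjusted p = 0.291) under the neuron scaling. In this list 3 rose and 2 fell, with 1 and 2 under that scaling.

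**Figure D5:**
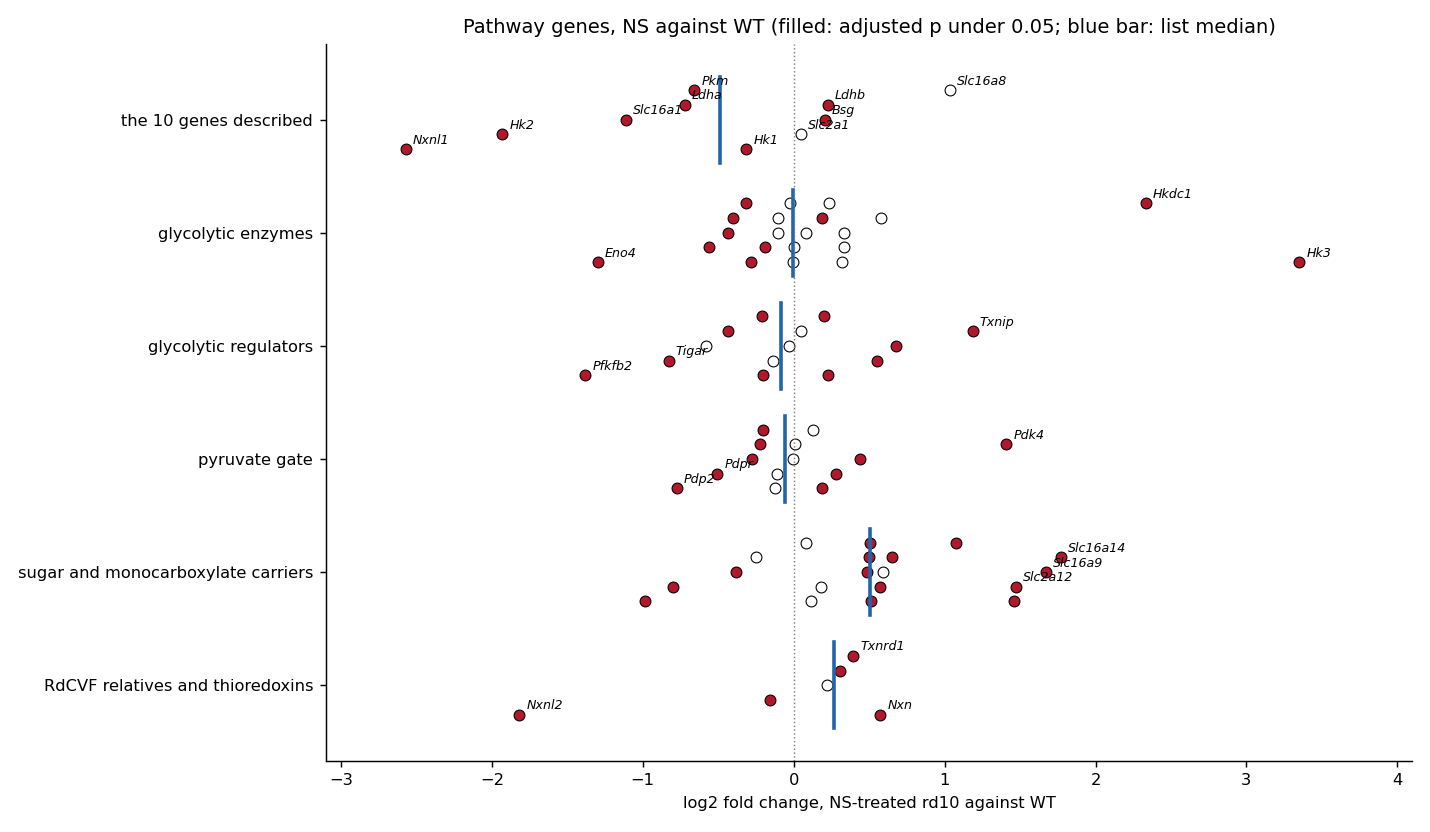
Log2 fold change of each tested gene of the pathway between NS-treated rd10 and WT (horizontal axis), by list, with calls filled and the list median as a blue bar. The 10 genes have a median of -0.49, and the carriers have one of 0.51.

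Between MSC-EVs and NS, 1 of the 74 genes passed, where 1.16% of all genes did. It was Pdk2, a pyruvate dehydrogenase kinase, which fell by 0.32 ± 0.061 on the log2 scale (edgeR adjusted p = 0.0441), from 92.0, 89.4 and 89.9 CPM with NS to 74.0, 70.3 and 71.6 CPM with MSC-EVs, below the WT libraries at 81.5 to 83.5 CPM. It passed in 10 of 18 alternatives and not under the neuron scaling, where 1 other gene of its list was called higher. With 1 library left out at a time, Pdk2 passed in 1 of 6 fits, without MSC-EVs replicate 2, and the adjusted p ranged from 0.0409 to 0.2. Pdpr, which fell with NS, was higher with MSC-EVs than with NS by 0.46 ± 0.093 and did not pass (edgeR adjusted p = 0.0525). Against WT, 19 of the 74 genes rose and 24 fell with MSC-EVs, near the 28.3% and 27.2% of all genes; under the neuron scaling 16 rose and 32 fell, and on FPKM 29 rose and 14 fell. Pfkfb3, which like Pfkfb2 makes fructose 2,6-bisphosphate, was called higher than WT in both rd10 groups, by 0.68 ± 0.088 with NS (edgeR adjusted p = 4.12e-05) and by 0.99 ± 0.13 with MSC-EVs (adjusted p = 0.000456), and the difference between the rd10 groups did not pass (adjusted p = 0.285). Pdhb, of pyruvate dehydrogenase, was likewise called lower than WT in both, by 0.28 ± 0.059 with NS and 0.36 ± 0.054 with MSC-EVs. Mpc2, of the mitochondrial pyruvate carrier, was lower with MSC-EVs by 0.28 ± 0.073 and passed in 15 of 18 alternatives, the adjusted p reaching 0.0829 with limma on FPKM.

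Genes whose levels over the 9 libraries were most like those of a member were sought among 14545 genes by the root mean square difference of log2 CPM, centered on each gene's mean. Nearest to Hk2 were Fscn2 and Pde6g, both of photoreceptor outer segments, at 0.074, and Susd3 at 0.076. Pde6g, a subunit of the rod phosphodiesterase, went from between 1861 and 2012 CPM in WT to between 394 and 525 CPM with NS. Nearest to Nxnl1 were Ndufaf2 at 0.119, Tnfaip3 at 0.151 and Chst3 at 0.156, each of which also had its highest rd10 level in an MSC-EVs library, at 18.7, 112 and 28.7 CPM. Nearest to Slc16a8 were Car12, Pon1 and Rdh5, the retinol dehydrogenase of pigment epithelium, at 0.208, 0.227 and 0.26. The likeness was not tested, and the libraries it rests on share depth and cell content.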

How the data were processed

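RNA-seq was done on oligo(dT)-selected retinal RNA of 9 samples (WT, NS and MSC-EVs, 3 each, grouped by the labels). The table deposited by the authors gives, per gene, expected counts (whole numbers in most genes, decimals in 9.16 to 11.7% of them) and FPKM. The submitters' processing notes name fastp, Bowtie2, HISAT2, StringTie 1.3.1 and RSEM, with no roles or order, and the genome build is not given in the sources used here. Expected counts were rounded, filtered with filterByExpr, scaled with TMM and tested with edgeR 4.0.16 (R 4.3.3; quasi-likelihood, robust) on the 6 libraries of each comparison, with Benjamini-Hochberg adjustment over all genes tested; SE is the log2 fold change over the root of F. The test was checked on simulated data. DESeq2 1.42.0, limma 3.58.1 on log2(FPKM + 1) and other scalings and filters were alternatives; the fit on libraries with few Y-linked counts and the shares of summed counts were added after the data were seen. Totals of 19491721 to 62532357 counts limit the precision of low genes such as Slc16a8. Positions are from GENCODE M21 (GRCm38), and promoters from RefSeq. The members and lists were chosen with earlier results of these data known. Besides the members, the genes named were the up to 3 called genes with the largest change per list and comparison, set markers, and the 3 genes most like Hk2, Nxnl1 and Slc16a8. A few others were named after their values were seen.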

Additional observations from a re-analysis of the deposited data

How the results depend on the processing

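In both comparisons with WT, the count of called genes among the 10 stayed within 1.5 times under every other test, scaling and filter. Asking for a 2-fold change left 3 of the 10 genes and 12 other pathway genes between NS and WT, and 3 and 10 between MSC-EVs and WT. Between MSC-EVs and NS, where 0 of the 10 and 1 other pathway gene passed, DESeq2 gave 2 and 4, all 9 libraries in one fit 2 and 5, the Y-linked covariate 2 and 0, and the libraries with few Y-linked counts 2 and 0; no filter gave 2 other pathway genes, and a 2-fold change or an adjusted p under 0.01 gave 0. Leaving out 1 library gave 0 to 1 of the 10 and 0 to 4 other pathway genes, the highest without MSC-EVs replicate 2. Over all genes, the 172 calls became 947 with DESeq2, 1026 with all 9 libraries, and, leaving out 1 library, 676 for MSC-EVs replicate 2, 164 for NS replicate 1, 123 for MSC-EVs replicate 3, 32 for NS replicate 2 and 0 for either of the remaining 2.

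With the replicate number as a block, 8, 0 and 5 of the 10 genes were called in the 3 comparisons, as without it, and 47, 2 and 42 other pathway genes; over all genes 403 were called between MSC-EVs and NS. The numbers were not taken as pairs, since same-numbered libraries correlated at 0.089, 0.197 and 0.284 between MSC-EVs and NS, at -0.074 to 0.065 between NS and WT and at 0.023 to 0.073 between MSC-EVs and WT. Between MSC-EVs and NS each library correlated best with its own number, a hint from the data and not from the design.

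Changes that turned direction were small or wide. Scaling to inner retinal neuron genes gave -0.061 for Ldhb, -0.245 for Slc2a1 and -0.082 for Bsg between NS and WT; 0.003 for Pkm, 0.002 for Slc2a1 and 0.033 for Slc16a1 between MSC-EVs and NS; and -0.11 for Hk1 and -0.17 for Bsg between MSC-EVs and WT. The Y-linked covariate and the libraries with few Y-linked counts gave, between MSC-EVs and NS, 0.14 and 0.14 for Hk2, 0.086 and 0.082 for Slc16a1 and 0.34 and 0.28 for Slc16a8, and between MSC-EVs and WT 0.056 and 0.057 for Ldhb, 0.018 and 0.023 for Slc2a1 and -0.068 and -0.064 for Bsg. Between MSC-EVs and WT, Ldhb was 0.14 with both limma settings (pseudocounts 1 and 0.1), and Slc2a1 was 0.005 with DESeq2 size factors, 0.006 with its Wald test, 0.014 with at least 10 counts in every library, and 0.10 with both limma settings. With 1 library left out, changes between MSC-EVs and NS ranged from -0.21 to 0.037 for Hk2, -0.072 to 0.004 for Pkm, -0.083 to 0.039 for Slc16a1, -1.20 to 0.26 for Slc16a8 and -0.26 to 0.30 for Nxnl1, and between MSC-EVs and WT from -0.005 to 0.13 for Hk1, -0.06 to 0.012 for Ldhb, -0.04 to 0.051 for Slc2a1, -0.17 to 0.88 for Slc16a8 and -0.033 to 0.056 for Bsg. The cause was not tested.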
